A study of Mus musculus with 9 samples.

Results

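The 3 arrays of mouse cortical neurons exposed to bicuculline were set against the 3 arrays of untreated neurons, across all genes the arrays measure; these are 6 of the 9 arrays of the series, and the other 3 hold neurons exposed to KCl. The members were taken by their sample titles, and no measured value entered the choice. Every culture came from C57bl/6 embryos at embryonic day 15 and was kept in vitro for 12 days. The bicuculline group had 25 µM of the drug in the medium for 6 hours, the KCl group had 50 mM KCl for 6 hours, and the control group is labelled as having no treatment, with no vehicle named. Total RNA was labelled with Cy3 and hybridised to Agilent whole mouse genome 4x44k arrays, 1 sample an array. The labels do not say whether the 3 replicates came from separate cultures, so the p-values measure the spread between these samples, which may be technical.

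Bicuculline is a competitive antagonist of the GABA-A receptor, the chloride channel that carries most fast inhibition in the cortex. In a connected culture, blocking it releases excitatory synapses from inhibition and the neurons fire in recurrent bursts, which brings calcium in through NMDA receptors and voltage-gated channels. Calcium then acts through the CREB, SRF and MEF2 transcription factors: a first wave of genes encodes further transcription factors such as Fos, and a later wave encodes secreted factors, channels and proteins of the synapse. KCl reaches some of the same pathways by depolarising every cell directly, without synaptic transmission.

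All 16 neuronal markers examined, Map2, Rbfox3, Tubb3 and Syn1 among them, were tested and well above background on all 6 arrays; so were all 12 astrocyte markers, all 10 markers of cycling cells and the 9 microglia markers tested, so markers of neurons were present but not alone. Values below are scaled signals, in which the spot at the 75th percentile of each array is 100, and differences are log2 bicuculline minus control from limma, given as the estimate ± its standard error. A gene is said to have risen or fallen where its Benjamini-Hochberg adjusted p over all genes tested was under 0.05. The array's 75th percentile of raw processed signal lay between 1586 and 3087 units on the 9 arrays, between 65.0% and 75.9% of spots were well above background, and no spot was saturated. Arrays within the control or the bicuculline group correlated at 0.995 to 0.998 over the genes tested, and control with bicuculline arrays at 0.985 to 0.989. In RNA from a whole culture, fewer cells of a type and less RNA per cell cannot be told apart.

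Of 14063 genes tested, 2444 were higher under bicuculline (17.4%) and 3798 were lower (27%), 44.4% in all. Most of these differences were small: 84.6% of the genes that passed changed by less than 1.5-fold, and the median size among them was 0.28 log2 against a median pooled SD of 0.06. At 2-fold or more the balance was the other way, with 244 genes higher (1.74%) and 78 lower (0.555%). Of these 244 genes 70 were not well above background on all 3 control arrays and were tested because they were well above background under bicuculline or KCl; among probes well above background on all arrays, 174 genes were higher and 62 lower. At 4-fold or more 69 genes were higher and 8 were lower. The 2 groups of 3 arrays did not overlap for 6209 of the 6242 genes that passed, and for 7996 of all genes tested (56.9%). The counts of each gene list below stand beside the shares of all genes tested, 17.4% higher and 27% lower, and no difference from those shares was tested. Controls and bicuculline arrays shared 2 slides, and the difference had the same sign on slide 1 for all 6242 genes and on slide 2 for 6239, with 1 opposite and 2 without a value there. Where the groups do not overlap, the sign on each slide must agree, so this agreement followed from the calls and is no separate support. Every gene named below as having risen or fallen was free of overlap, except Oasl2. When the background was re-estimated from the median raw spot and local background signals (normexp), 483 genes were higher and 340 lower. The share of higher calls was 58.7% there against 39.2% here, and 126 and 29 genes passed 2-fold. This alternative also added an offset of 50 units to every spot, which shrinks the log2 differences of dim probes. The part of the offset in the calls lost under normexp was not tested. Scaling to spike-in spots gave 1247 and 1256, a share of 49.8%.

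**Figure D1:**
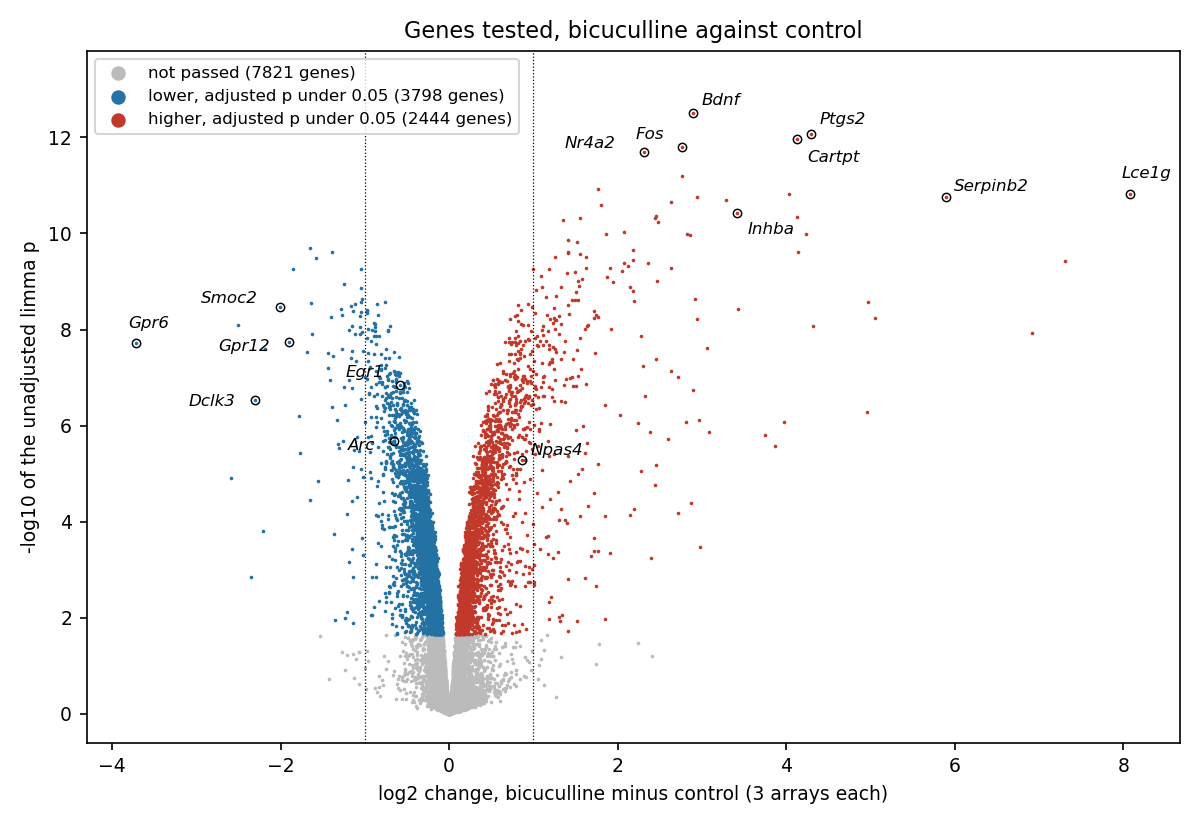
Each point is 1 of 14063 genes; the x axis is the log2 difference between bicuculline and control (3 arrays each) and the y axis is -log10 of the unadjusted limma p, with dotted lines at 2-fold. The points past 2-fold are mostly to the right (244 higher and 78 lower), with Lce1g, Serpinb2, Ptgs2 and Cartpt among the farthest, while Egr1 and Arc lie on the left.

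The promoters of the genes that moved most were compared, because cAMP response elements (CRE, bound by CREB) and AP-1 elements (bound by Fos and Jun dimers) are the classic activity-regulated sites. The windows are RefSeq's, on build GRCm38.p6, from 250 bases before to 50 after each transcript start, and both strands were searched. Among the 40 largest rises, 33 had a window; the full CRE, TGACGTCA, occurred in 5 of them (15.2%), against 3.46% of the 11214 genes tested that had a window. Among the 40 largest falls, 30 had a window and 1 held a CRE (3.33%). The CRE half-site, TGACG, which every full CRE also contains, occurred in 22 of 33 genes that rose (66.7%) and 8 of 30 that fell (26.7%), against 33.7% of all genes with a window. The AP-1 element was searched as TGANTCA, which allows any middle base and is wider than the consensus site. Matches to it, called AP-1 elements below, occurred in 7 of the genes that rose (21.2%) and 2 that fell (6.67%), against 6.45%. Genes with several transcript starts had several windows, and the 33 genes that rose had 57. Counted by window, the CRE share was 8.77% among the rises and 2.63% among the falls, against 2.91% for all genes tested. For the half-site these shares were 49.1% and 21.1%, against 29.1%. For the AP-1 element they were 14.0% and 5.26%, against 5.35%. The EGR element, GCGTGGGCG, occurred in none of either set (1.32% of all genes), and the serum response element (SRE) occurred in none of the rises and 1 of the falls, against 1.67%. A match is a description of the letters in a window, and these shares were not tested.

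The 5 genes with a CRE were Cartpt, Pcsk1, Zdbf2, Scg2 and Dio2, and the 7 with an AP-1 element were Serpinb2, Shc4, Bdnf, Arpp21, Il11, Tnfaip6 and Csrnp1. Cartpt, Pcsk1 and Scg2 all encode parts of the peptide secretory pathway: a neuropeptide precursor, the convertase that cuts such precursors, and a granin of the dense-core vesicle. The windows of 5 of the 15 largest rises, and of 1 large fall that also held an AP-1 element, are shown with the matched letters in capitals. The Cartpt window (GRCm38.p6, chr13:99900634-99900933, minus strand) has its CRE 112 bases before the start, and the Pcsk1 window (chr13:75089607-75089906, plus strand) 78 bases before it. The AP-1 element lies 94 bases before the start in Serpinb2 (chr1:107511173-107511472, plus strand), 131 in Shc4 (chr2:125724099-125724398, minus strand) and 152 in 1 of the 7 Bdnf windows (chr2:109676782-109677081, plus strand). In Tnfaip3, which fell, it lies 136 bases before the start of 1 of 2 windows (chr10:19015361-19015660, minus strand). The Serpinb2 and Bdnf matches read TGAATCA, and those of Shc4 and Tnfaip3 read TGACTCA. A second, overlapping Serpinb2 window holds the same match 181 bases before its start.
Cartpt: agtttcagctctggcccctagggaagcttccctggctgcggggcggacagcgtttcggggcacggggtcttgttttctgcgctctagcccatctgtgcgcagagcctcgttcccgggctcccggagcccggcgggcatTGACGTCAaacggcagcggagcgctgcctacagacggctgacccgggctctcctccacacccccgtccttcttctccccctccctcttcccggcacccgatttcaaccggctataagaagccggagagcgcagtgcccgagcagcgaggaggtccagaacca
Pcsk1: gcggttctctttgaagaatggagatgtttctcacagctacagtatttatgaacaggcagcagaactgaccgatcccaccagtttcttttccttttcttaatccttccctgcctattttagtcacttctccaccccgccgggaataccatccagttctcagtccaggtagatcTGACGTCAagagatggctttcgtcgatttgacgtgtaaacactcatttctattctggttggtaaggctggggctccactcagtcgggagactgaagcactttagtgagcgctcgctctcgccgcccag
Serpinb2: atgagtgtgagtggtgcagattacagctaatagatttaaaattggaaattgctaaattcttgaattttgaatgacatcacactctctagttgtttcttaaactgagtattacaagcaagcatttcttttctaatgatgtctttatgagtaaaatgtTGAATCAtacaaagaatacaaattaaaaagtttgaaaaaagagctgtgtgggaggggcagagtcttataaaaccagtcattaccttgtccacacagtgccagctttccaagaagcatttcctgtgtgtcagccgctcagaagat
Shc4: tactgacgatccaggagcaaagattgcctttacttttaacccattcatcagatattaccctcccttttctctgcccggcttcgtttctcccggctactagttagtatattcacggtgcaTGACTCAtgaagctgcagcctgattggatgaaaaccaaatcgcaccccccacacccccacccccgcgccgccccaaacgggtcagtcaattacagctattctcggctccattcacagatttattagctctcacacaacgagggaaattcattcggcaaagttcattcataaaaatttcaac
Bdnf: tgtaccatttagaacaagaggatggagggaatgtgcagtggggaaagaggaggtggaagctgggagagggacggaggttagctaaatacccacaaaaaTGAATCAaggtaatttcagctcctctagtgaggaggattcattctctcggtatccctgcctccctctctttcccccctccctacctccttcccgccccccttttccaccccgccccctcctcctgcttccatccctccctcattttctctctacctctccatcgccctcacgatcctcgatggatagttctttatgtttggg
Tnfaip3: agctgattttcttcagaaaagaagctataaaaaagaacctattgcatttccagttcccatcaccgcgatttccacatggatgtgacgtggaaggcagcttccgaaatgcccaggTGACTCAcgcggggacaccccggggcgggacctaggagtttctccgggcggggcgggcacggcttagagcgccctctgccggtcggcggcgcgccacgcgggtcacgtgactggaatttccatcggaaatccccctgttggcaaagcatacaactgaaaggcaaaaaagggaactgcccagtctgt

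The 15 largest rises on probes above background in both groups were led by Serpinb2, the plasminogen activator inhibitor type 2. It read 4.40, 3.39 and 3.75 in controls and 251, 205 and 227 under bicuculline, a 59.4-fold rise (5.89 ± 0.10, adjusted p = 2.25e-08). Ptgs2, the inducible cyclooxygenase of prostaglandin synthesis, went from 2.59, 2.57 and 2.75 to 51.2, 52.0 and 52.3, 19.7-fold (4.30 ± 0.05, adjusted p = 5.01e-09). Cartpt, the precursor of the CART neuropeptides whose promoter carries the CRE shown above, read 19.1, 20.8 and 20.4 in controls and 359.5, 347 and 349.9 under bicuculline, 17.5-fold. Bdnf, the neurotrophin that strengthens excitatory synapses, read 228, 226 and 237 in controls and 1740.1, 1689 and 1726 under bicuculline, 7.46-fold (2.90 ± 0.03, adjusted p = 4.42e-09). In all 4 genes the spread within a group was small beside the gap, while a lack of overlap between groups was a condition for entering the 15. Inhba, which encodes the subunit of activin A, rose from 90.2, 97.6 and 85.2 to 1034, 939.6 and 937 (3.41 ± 0.07).

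Transcription factors among the same 15 were Fosb, Klf14, Pax1 and the zinc finger gene Zfp459. Fosb, a partner of Jun proteins in AP-1, went from 5.71, 6.57 and 7.74 to 112, 119 and 120.3 (4.14 ± 0.10); Klf14, a Krüppel-like factor, from 5.14 and 5.39 on 2 control arrays, the spot on the other being left out for its outlier flag, to 88.9, 94.0 and 92.3 (4.12 ± 0.06). Pax1, a paired-box factor best known from the embryonic skeleton, rose by 2.86 ± 0.06 and Zfp459 (2.82 ± 0.06) by nearly as much. The others were the serine protease Prss16 (4.24 ± 0.09), the small heat shock protein Hspb3 (3.28 ± 0.06), the calcium-channel-inhibiting GTPase Rrad (3.06 ± 0.14), the convertase Pcsk1 (2.95 ± 0.05), the receptor adaptor Shc4 (2.94 ± 0.11) and the nucleotidyltransferase Tent5a (2.76 ± 0.04). Pcsk1 signals were 60.9, 63.3 and 63.5 against 481, 502 and 464, and the second Pcsk1 probe gave a larger difference, 4.24. Within slides, the Serpinb2 difference was 5.88 on slide 1 and 5.92 on slide 2, and that of Bdnf 2.92 and 2.87. All 15 calls passed under each alternative processing that was run.

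The largest falls were smaller. Dclk3, a doublecortin-like kinase, read 24.9, 26.2 and 24.1 in controls and 4.97, 4.91 and 5.41 under bicuculline, a 4.92-fold fall (-2.30 ± 0.14, adjusted p = 9.56e-06). Smoc2, a secreted calcium-binding matrix protein, went from 30.9, 31.6 and 31.6 to 7.50, 7.96 and 7.95 (-2.01 ± 0.07). Gpr12, an orphan receptor that raises cAMP without a known ligand, went from 103, 99.9 and 91.1 to 26.0, 28.8 and 23.8 (-1.90 ± 0.08). A lack of overlap between groups was a condition for being named among these largest falls, so it is no separate support for the 3 genes. Within a group their arrays lay close together.

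The next falls were Dact2 (-1.86 ± 0.05), which binds Dishevelled in Wnt signalling, the zinc finger factor Ovol2 (-1.78 ± 0.12), the membrane glycoprotein Gypc (-1.76 ± 0.15), Clca3a1 (-1.68 ± 0.08), an accessory protein of chloride channels, and Fam184b (-1.65 ± 0.04). Tnfaip3, which encodes A20, the ubiquitin-editing brake on NF-kappa-B, fell from 53.1, 52.0 and 51.6 to 15.6, 17.6 and 17.1 (-1.64 ± 0.06). Rasl10a (-1.63 ± 0.07), a Ras-like GTPase, Ccbe1 (-1.58 ± 0.04), a secreted factor of lymphatic growth, and Inpp5d (-1.56 ± 0.16), the inositol phosphatase SHIP1, followed. Other probes of Ccbe1 gave -0.88 and -1.95, the latter well above background on 1 bicuculline array. The last 3 of the 15 were Tmem121b (-1.44 ± 0.07), Tmem158 (-1.43 ± 0.07) and Dbpht2 (-1.42 ± 0.08). The Inpp5d signal was scattered under bicuculline, at 4.93, 7.56 and 6.95 against 18.7, 19.0 and 18.5 in controls. Under the normexp background the calls of Gypc, Clca3a1, Rasl10a, Inpp5d, Tmem121b and Dbpht2 did not pass. The Dclk3 difference was -2.37 on slide 1 and -2.16 on slide 2.

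**Figure D2:**
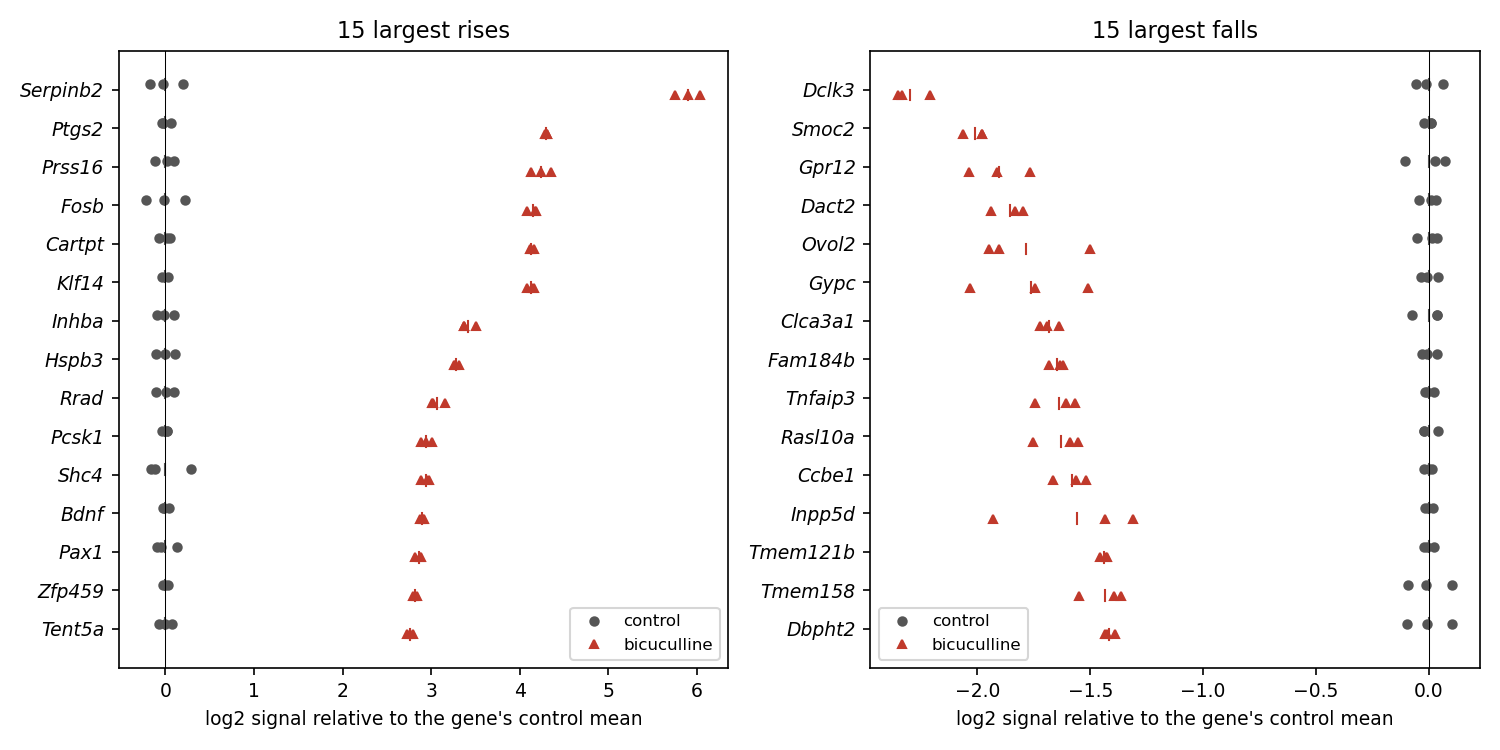
The 15 largest rises (left) and 15 largest falls (right) on probes above background on all 6 arrays; the x axis is the log2 signal of each array relative to the gene's mean over the 3 control arrays. Circles are control arrays, triangles bicuculline arrays and short lines group means. Genes whose groups overlap were left out by rule, and Serpinb2 sits at 5.89 and Dclk3 at -2.30.

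Further genes were not well above background on any array of 1 group, so their change has only a lower bound. The bound was taken against the dimmest probe signals that were still well above background. Bounds could be set for 35 genes that were higher under bicuculline and 3 that were lower. The largest were 2 late cornified envelope genes, proteins of the skin barrier: Lce1g was at least 96.7-fold higher, with mean signals of 0.50 and 135, and Lce1f at least 32.2-fold (0.28 and 44.9). Areg, the EGF receptor ligand amphiregulin, was at least 14.0-fold higher (0.59 and 19.6). Tslp, an epithelial cytokine, was at least 7.10-fold higher, and Baiap2l1, which bends membranes at actin-rich protrusions, at least 5.08-fold. The 3 lower genes were the nucleoside transporter Slc28a2 (at least 2.88-fold), the pentraxin Ptx4 (at least 2.05-fold) and the peptidoglycan sensor Nod2 (at least 2.04-fold).

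Of the AP-1 and ATF factors, 10 of 15 rose and 3 fell, beside 17.4% and 27% of all genes, with a median difference of 0.58. Fos read 116, 119.8 and 124 in controls and 794, 808 and 833 under bicuculline, 6.76-fold (2.76 ± 0.04, adjusted p = 5.62e-09). Atf3, a stress-induced member of the ATF family, rose by 2.63 ± 0.07 and Fosl2 by 1.63 ± 0.04. Junb, a Jun protein of AP-1, rose less, from 1055, 1105 and 1093 to 1586, 1631 and 1630.5 (0.58 ± 0.03). Among those that fell, Batf3 (-0.48 ± 0.09) and Jdp2 (-0.28 ± 0.05) moved by less than 0.5, and Jdp2 is known as a repressor of AP-1. The calls of Junb, Batf3 and Jdp2 did not pass under the normexp background. The median was 0.57 on slide 1 and 0.58 on slide 2, and 6 of the list rose under normexp.

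Egr, Nab, Srf and Nr4a factors split, with 8 of 15 higher and 4 lower. The Nr4a orphan nuclear receptors all rose. Nr4a2 went from 175, 172 and 175 to 895, 842 and 858 (2.31 ± 0.03, adjusted p = 5.62e-09 in limma). Nr4a1 went from 1039, 1016 and 1016 to 1689, 1527 and 1626 (0.66 ± 0.05). Nr4a3, not well above background in any control, rose by at least 2.04-fold. Npas4, a factor known for its selective response to calcium entry, rose from 45.1, 39.9 and 42.3 to 69.8, 84.0 and 78.2 (0.86 ± 0.08), and Ier2 (1.19 ± 0.06) rose more. Egr1, a common marker of recent activity, was lower at 6 hours: 663, 655 and 664 in controls and 444, 433 and 443 under bicuculline (-0.59 ± 0.03, adjusted p = 5.94e-06). Every Egr1 value under bicuculline was below every control value. Egr4 fell further, from 728, 729 and 773 to 349, 342 and 387 (-1.05 ± 0.06), together with Nab2 (-0.55 ± 0.10), a corepressor of Egr proteins, and Srf (-0.34 ± 0.05). Normexp background correction ended the calls of Nr4a3, Nab2 and Srf.

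Arc, whose protein removes AMPA receptors from synapses, was also lower, at 150.4, 148 and 154 in controls and 98.4, 94.0 and 95.1 under bicuculline (-0.65 ± 0.05, adjusted p = 3.88e-05). It belongs to a list of effectors of synaptic scaling, in which 7 of 22 rose and 8 fell. The neuronal pentraxin Nptx2, which clusters AMPA receptors, rose from 31.0, 30.0 and 29.9 to 124, 139 and 134 (2.13 ± 0.06). The adhesion protein Pcdh8 (2.83-fold), the polo-like kinase Plk3 (1.00 ± 0.05) and the GTPase Rheb (0.79 ± 0.05), which activates mTOR, rose with it. Synpo (-0.91 ± 0.07), the spine apparatus protein, Kalrn (-0.89 ± 0.03), a guanine nucleotide exchange factor of spines, and Sipa1l1 (-0.62 ± 0.08), a target of polo-like kinases, fell. For Synpo the other 2 probes gave 0.00 and 0.13, so its fall rests on 1 probe. Homer1 read 291, 291 and 274 and 286, 280.0 and 269 on its brightest probe, with overlapping groups (-0.04 ± 0.05, adjusted p = 0.634), while its other 2 probes gave 0.25 and 0.25; probes of this gene can read the long scaffold and the short activity-induced form. With the background re-estimated by normexp, Synpo and Sipa1l1 did not pass.

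Krüppel-like factors had 5 of 15 higher and 7 lower. Beside Klf14, the pluripotency factor Klf4 rose from 42.5, 40.7 and 41.6 to 107.3, 116 and 120.0 (1.46 ± 0.05), Klf5 by 1.41 ± 0.03 and Klf3 by 0.50 ± 0.07. Klf7, known for its part in axon growth, went the other way, from 739, 755 and 687 to 384, 368 and 339, followed by Klf10 (-0.65 ± 0.04), Klf8 (-0.36 ± 0.07) and Klf13 (-0.34 ± 0.04). Of these genes, Klf8 and Klf13 did not pass under normexp.

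In the CREB pathway 14 of 33 genes rose and 9 fell. Crem, whose internal promoter gives the repressor ICER, rose from 58.7, 61.8 and 62.7 to 228, 218 and 222 (1.87 ± 0.04, adjusted p = 5.79e-08), and 5 other probes of the gene gave between 0.60 and 2.09. Sik1, the kinase that returns CREB coactivators to the cytoplasm, rose by 1.72 ± 0.06. The regulatory subunit of protein kinase A Prkar2a (1.56 ± 0.07) and the calcium-activated adenylyl cyclase Adcy8 (1.06 ± 0.05) rose as well. The phosphodiesterase Pde4a (-0.64 ± 0.05) and the cyclases Adcy3 (-0.50 ± 0.07), Adcy2 (-0.41 ± 0.04) and Adcy9 (-0.38 ± 0.06) fell. Calls lost under normexp were those of Sik1, Adcy3 and Adcy9.

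Clock genes, several of which have CREB sites, counted 6 of 21 higher and 7 lower. Nfil3 rose from 271, 277 and 264 to 958, 931 and 953 (1.81 ± 0.03) and Per1, the light-induced period gene, from 205, 204 and 200.3 to 442, 445 and 435 (1.12 ± 0.05). Cry1 (0.84 ± 0.05) and Rorb (0.87 ± 0.07) also rose, with a second Rorb probe at 1.77. The REV-ERB repressors Nr1d1 (-0.57 ± 0.04) and Nr1d2 (-0.56 ± 0.03), with Ciart (-0.64 ± 0.06) and Rora (-0.42 ± 0.04), fell. When normexp set the background, Cry1, Rorb, Nr1d1 and Ciart did not pass.

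Among MEF2 factors and calcineurin partners, 5 of 15 rose and 2 fell, none by more than the 0.50 of Mef2d. Mef2d (0.50 ± 0.12) was higher and Mef2a (-0.39 ± 0.03) lower. The calcineurin regulators Rcan2 (0.28 ± 0.04) and Rcan1 (0.16 ± 0.04) and the kinase Dyrk1a (0.49 ± 0.03), which opposes NFAT, were higher, and the calcineurin inhibitor Cabin1 (-0.25 ± 0.05) was lower; a second Dyrk1a probe gave -0.01. Of 34 cytoskeletal targets of SRF and MRTF, 10 rose and 2 fell, with most of the list not passing. Mrtfb (1.46 ± 0.08), an SRF coactivator, rose on its brightest probe, and its other 2 gave 0.17 and 0.60. Cnn1 (0.74 ± 0.05) and Tpm4 (0.57 ± 0.04) rose, while Fhl2 (-1.40 ± 0.05) and Vcl (-0.41 ± 0.06) fell. The muscle gene Xirp2, not well above background in any control, was at least 4.61-fold higher. Fhl2, a coactivator that binds several of these factors, read 223, 247 and 237 in controls and 86.6, 90.4 and 89.8 under bicuculline. Without KCl replicate 1 or 2, or with the replicate number as a block, 4 genes of this list were lower. In the normexp alternative the calls of Mef2d, Mef2a, Rcan2, Rcan1, Cabin1, Tpm4, Xirp2 and Vcl were lost.

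Chromatin regulators had 13 of 51 higher and 16 lower (25.5% and 31.4%, beside 17.4% and 27% of all genes). Under spike-in scaling 8 were higher and 2 lower, and under normexp 5 and 0, so the balance turned. Gadd45a and Gadd45b, linked to DNA demethylation, rose: Gadd45a read 27.8, 24.8 and 28.7 in controls and 103, 107.4 and 103 under bicuculline (1.95 ± 0.06), and Gadd45b differed by 0.88 ± 0.05. Hdac9 (1.22 ± 0.07) and the 5-methylcytosine oxidase Tet2 (0.90 ± 0.05) were higher, and Hdac2 (-0.43 ± 0.08), Smarca2 (-0.38 ± 0.04), Hdac7 (-0.34 ± 0.05) and Ezh1 (-0.32 ± 0.09) lower. Under the normexp background the calls of Tet2, Hdac2, Smarca2, Hdac7 and Ezh1 did not pass. A call also ended when 1 array was left out for Ezh1 (control 1, control 2, bicuculline 2 and bicuculline 3).

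Inhibitors of MAP kinase and cytokine signalling had 15 of 27 higher, 4 lower and a median of 0.29, where the median over all genes tested was -0.03. Dusp1, a phosphatase of MAP kinases in the nucleus, rose from 126, 125 and 112 to 434, 398 and 377 (1.74 ± 0.06, adjusted p = 6.8e-07). Dusp4 went from 38.2, 40.2 and 39.7 to 92.7, 110.4 and 102 (1.37 ± 0.06), and Dusp16 (1.32 ± 0.40) and the Ras pathway inhibitor Spry4 (0.92 ± 0.14) rose too. Socs2, a suppressor of growth hormone signalling, was the largest fall of the list, from 132, 136 and 138 to 62.0, 63.2 and 58.4 (-1.15 ± 0.04), with Dusp2 (-0.66 ± 0.08), Dusp7 (-0.52 ± 0.06) and Cish (-0.16 ± 0.04) also lower. The list's median was 0.32 on slide 1 and 0.24 on slide 2, and under normexp 8 members were higher and 2 lower. Dusp16 (on 1 of 3 control arrays) was well above background on part of a group. The calls of Dusp16, Spry4, Dusp2 and Cish did not pass under the normexp background. Calls that rested on single arrays, named in brackets, were those of Dusp16 (control 1, control 3, bicuculline 1 and bicuculline 2) and Cish (control 1, control 2 and bicuculline 3).

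RGS proteins, which speed the shut-off of G proteins, split evenly, 6 of 18 higher and 6 lower. Rgs16 rose from 23.1, 21.9 and 21.9 to 46.2, 74.6 and 63.4 (1.43 ± 0.15), followed by Rgs4 (0.86 ± 0.05), Rgs2 (0.67 ± 0.03) and Rgs6 (0.58 ± 0.04). Rgs19 (-0.58 ± 0.06), Rgs17 (-0.32 ± 0.04) and Rgs11 (-0.32 ± 0.10) fell. Rgs8 (-0.25 ± 0.04) fell on its brightest probe and its second probe gave 0.91, so the direction depends on the probe. The count of falls was 3 without control replicate 3 or bicuculline replicate 1. Normexp background correction ended the calls of Rgs17, Rgs11 and Rgs8. Without 1 of the arrays in brackets, the call was lost for Rgs11 (control 1, control 3, bicuculline 1, bicuculline 2 and bicuculline 3).

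Secreted growth factors counted 13 of 38 higher and 9 lower. The matricellular protein Ccn1 (1.02 ± 0.06) rose with Bdnf and Areg. The neurotrophin Ntf3 went down: it read 14.2, 14.7 and 16.4 in controls and 7.16, 10.4 and 8.56 under bicuculline (-0.81 ± 0.13). Pdgfb (-0.84 ± 0.09), Fgf18 (-0.69 ± 0.04) and Ccn3 (-0.41 ± 0.06) fell as well. Thus Bdnf rose while Ntf3, a neurotrophin too, fell, in each case without overlap between groups. With the background re-estimated by normexp, Ntf3, Pdgfb and Ccn3 did not pass.

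Growth factor receptors had 7 of 29 higher and 7 lower. The sorting receptor Sorcs3 (0.97 ± 0.04), Fgfr2 (0.59 ± 0.05) and Fgfr1 (0.49 ± 0.09) rose, and another Fgfr2 probe gave 1.13. Igf1r (-0.54 ± 0.06), Ltk (-0.40 ± 0.13), Met (-0.39 ± 0.03) and Fgfr3 (-0.28 ± 0.07) fell, but 1 of 2 other probes of Igf1r gave 0.39 and 1 of Fgfr3 gave 0.28. Of these genes, Fgfr1, Ltk, Met and Fgfr3 did not pass under normexp. Leaving out 1 array ended the call of Ltk (control 1, control 2, control 3, bicuculline 1, bicuculline 2, bicuculline 3 and KCl 3).

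The TGF-beta and BMP list held 15 of 45 genes that rose and 11 that fell. The activin system moved at several points: beside the ligand gene Inhba, its type I receptor Acvr1c rose from 13.7, 15.9 and 14.8 to 61.3, 66.0 and 69.5 (2.15 ± 0.07) and its secreted antagonist Fst from 10.4, 11.5 and 12.4 to 26.4, 27.6 and 28.0 (1.26 ± 0.07). The type II receptor Acvr2b (-0.64 ± 0.06), the other beta subunit Inhbb (-0.48 ± 0.04) and the signal transducer Smad3 (-0.47 ± 0.05) fell, with a second Smad3 probe at 0.13. Bmp3 (1.52 ± 0.05) rose and Id2 (-0.58 ± 0.04), a target of BMP signalling, fell. Calls lost under normexp were those of Acvr2b, Smad3 and Id2.

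Wnt genes had 10 of 42 higher and 13 lower. The R-spondins, which amplify Wnt signals, rose: Rspo3 (1.47 ± 0.08) without overlap between groups, and Rspo2 from 156, 141 and 146 to 237, 240.3 and 246 (0.71 ± 0.04). The antagonist Dkk2 (1.51 ± 0.09) and the receptor Fzd5 (0.72 ± 0.16) were higher. Wnt9a fell from 92.6, 99.1 and 94.6 to 42.6, 46.7 and 43.5 (-1.11 ± 0.05); Wnt10a (-2.21 ± 0.32) and Wnt6 (-1.02 ± 0.10), and Fzd10 (-0.79 ± 0.11) fell too, although a second Fzd10 probe gave 0.38. Dkk2 (on 2 of 3 control arrays), Wnt10a (on 1 of 3 bicuculline arrays) and Wnt6 (on 2 of 3 bicuculline arrays) were well above background on part of a group. When normexp set the background, Rspo3, Dkk2, Fzd5, Wnt10a, Wnt6 and Fzd10 did not pass.

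Of the Notch and neuronal bHLH genes, 7 of 31 rose and 13 fell. Hes5, the Notch target of neural progenitors, fell from 593, 662 and 585 to 363, 376 and 343 (-0.76 ± 0.06), and the proneural and neuronal factors Neurod1 (-0.79 ± 0.07), Neurod2 (-0.67 ± 0.04) and Neurog2 (-0.59 ± 0.06) fell. Maml3 (0.51 ± 0.16), Maml1 (0.39 ± 0.04), Hey2 (0.38 ± 0.06) and Hes1 (0.33 ± 0.10) rose. The count of rises was 4 without control replicate 2 and 3 without control replicate 3 or bicuculline replicate 3. In the normexp alternative the calls of Neurod1, Neurod2, Neurog2, Maml3, Hey2 and Hes1 were lost. A call also ended when 1 array was left out for Maml3 (control 2, control 3, bicuculline 2 and bicuculline 3) and Hes1 (control 1, control 2, control 3, bicuculline 1 and bicuculline 3). With the replicate number as a block in limma, the adjusted p was 0.0603 for Maml3.

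Cytokines and chemokines had 6 of 26 tested genes higher and 5 lower. Il11 rose from 3.13, 3.24 and 4.30 to 17.9, 20.4 and 19.7 (2.46 ± 0.12), and Il1b (2.27 ± 0.09) rose. Tslp and Il1a were not well above background in any control, and Il1a was at least 1.58-fold higher. Il34, the neuronal ligand that maintains microglia, fell from 91.2, 104 and 93.1 to 42.5, 42.9 and 43.6 (-1.16 ± 0.05, adjusted p = 1.95e-06); Il33 (-0.53 ± 0.06), Cntf (-0.29 ± 0.04) and Ccl27a (-0.23 ± 0.06) fell. The count of falls was 3 without control replicate 2, control replicate 3 or bicuculline replicate 2. Il1b (on 1 of 3 control arrays) was well above background on part of a group. Under the normexp background the calls of Il11, Il1b, Il1a, Il33, Cntf and Ccl27a did not pass. Calls that rested on single arrays, named in brackets, were those of Ccl27a (control 2, control 3 and bicuculline 2).

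Neuropeptides and their processing genes were among the lists with the most rises, 15 of 29 higher and 2 lower, with a median of 0.20. Adcyap1, the precursor of PACAP, rose from 117, 119.8 and 114 to 773, 719.7 and 684 (2.63 ± 0.05, adjusted p = 2.41e-08), and Penk, the enkephalin precursor, from 335, 345 and 347 to 1498, 1507 and 1648 (2.18 ± 0.06). Together with Cartpt and Pcsk1 these made up the 4 largest rises of the list. Only the vesicle-priming proteins Cadps (-0.17 ± 0.04) and Cadps2 (-0.17 ± 0.05) fell, by little, and 9 of the list rose under normexp. Neither fall passed under normexp, nor without control replicate 2 or bicuculline replicate 3. The median was 0.21 on slide 1 and 0.14 on slide 2.

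Extracellular proteases and their inhibitors had 11 of 46 higher and 8 lower. Adamts1, which cleaves the proteoglycans aggrecan and versican, rose from 123, 131 and 122 to 534, 507 and 513 (2.05 ± 0.06, adjusted p = 1.69e-07). Mmp10, a metalloproteinase not well above background in any control, was at least 2.41-fold higher, and tissue plasminogen activator, Plat (0.46 ± 0.05), rose beside Serpinb2. Adam12 (-0.85 ± 0.05), Adamts18 (-0.65 ± 0.10), Serpina3n (-0.49 ± 0.16) and Adamts3 (-0.31 ± 0.03) fell, the last with a second probe at 0.24. The count of rises was 7 without control replicate 2. The calls of Mmp10, Plat, Adam12, Adamts18, Serpina3n and Adamts3 did not pass under the normexp background. Without 1 of the arrays in brackets, the call was lost for Serpina3n (control 2, control 3, bicuculline 1, bicuculline 3 and KCl 1).

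The extracellular matrix list had 7 of 55 genes higher and 11 lower. The proteoglycans of the perineuronal net were among the rises: Acan (aggrecan) read 22.0, 24.9 and 24.4 in controls and 97.0, 83.9 and 88.7 under bicuculline (1.92 ± 0.08), and Vcan (versican) 12.0, 13.1 and 12.7 and 27.8, 26.0 and 28.2 (1.12 ± 0.04). Tnc (0.49 ± 0.06) and Fbln2 (0.36 ± 0.05) rose less. Besides Smoc2, the hyaluronan synthase Has3 (-0.76 ± 0.18), Col8a1 (-0.43 ± 0.08) and Col1a1 (-0.40 ± 0.12) fell. Without bicuculline replicate 3, 7 genes were lower. Normexp background correction ended the calls of Tnc, Fbln2, Has3 and Col1a1. Leaving out 1 array ended the call of Col1a1 (control 1, control 3, bicuculline 1, bicuculline 2 and bicuculline 3).

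The epidermal list, 40 of whose 84 genes were tested, had 9 higher and 5 lower (22.5% and 12.5%, beside 17.4% and 27% of all genes). Of the 9 rises 8 were on probes not well above background on all 3 control arrays, which were tested because they were well above background under bicuculline or KCl, so nothing about the list is read from the count of rises. Beside Lce1g and Lce1f, 2 related skin genes rose. Lce1i read 0.75, 0.69 and 1.53 in controls and 130.4, 97.3 and 111 under bicuculline, and Crct1 0.49 and 0.56 on the 2 control arrays without an outlier flag and 18.7, 14.0 and 16.8 under bicuculline. The second Lce1g probe gave 3.31. These genes are similar in sequence, and a probe may read more than 1 of them. The falls were Krt222 (-0.66 ± 0.06), Krt12 (-0.62 ± 0.21), Krt9 (-0.32 ± 0.10) and Lor (-0.19 ± 0.04), and the falls numbered 2 or 3 when any 1 of the 6 arrays or KCl replicate 3 was left out. The Krt12 spot of control replicate 3 had an outlier flag and was left out. Lce1i (on 1 of 3 control arrays) and Crct1 (on 1 of 3 control arrays) were well above background on part of a group. With the background re-estimated by normexp, Crct1, Krt222, Krt12, Krt9 and Lor did not pass. A call also ended when 1 array was left out for Krt12 (control 1, control 2, control 3, bicuculline 1, bicuculline 2, bicuculline 3 and KCl 3) and Krt9 (control 1, control 2, control 3, bicuculline 1, bicuculline 2 and KCl 1).

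**Figure D3:**
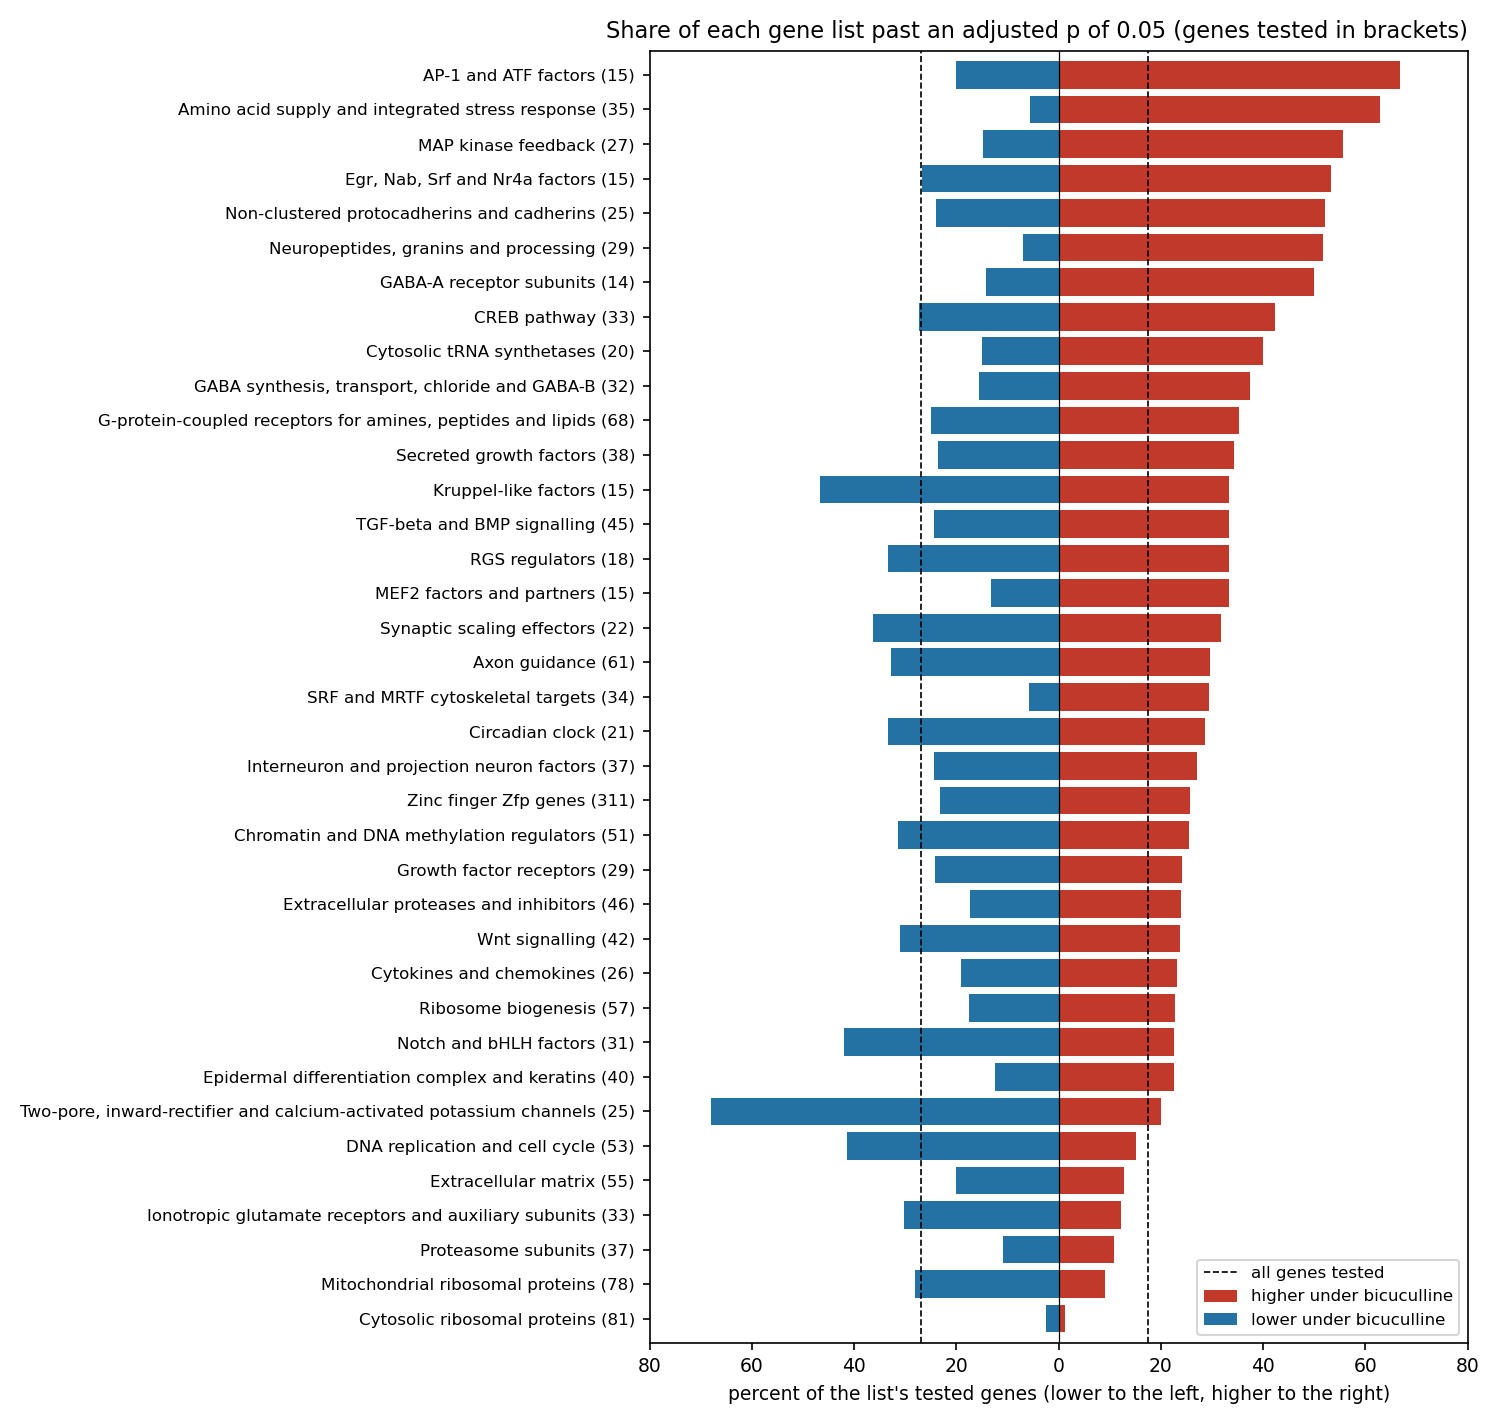
Percent of each list's tested genes that passed an adjusted p of 0.05, higher to the right and lower to the left, with the number of genes tested in brackets and dashed lines at the shares over all genes tested (17.4% and 27%). AP-1 and ATF factors reach 66.7% higher, the two-pore, inward-rectifier and calcium-activated potassium channels reach 68% lower (17 of 25, against 11 under spike-in scaling and 5 under normexp), and the cytosolic ribosomal proteins are near 0 on both sides.

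The receptor that bicuculline blocks is a pentamer, most often of alpha, beta and gamma subunits, with delta and epsilon replacing gamma in some receptors outside the synapse. Of 14 subunit genes tested, 7 rose and 2 fell. Gabrg1 was the clearest, at 84.0, 83.2 and 84.8 in controls and 199, 204 and 201 under bicuculline (1.26 ± 0.03, adjusted p = 1.18e-07). Gabra2 read 168, 173 and 165 and 332, 321 and 315 (0.94 ± 0.04, adjusted p = 1.31e-06). Gabra4, an alpha subunit of extrasynaptic receptors, read 402, 412 and 398 and 581, 524 and 580.1 (0.47 ± 0.05). Its partner Gabrd, the delta subunit, read 149.7, 155 and 153 and 203, 187 and 206 (0.38 ± 0.06). The epsilon gene Gabre was dimmer and more scattered in controls, at 5.47, 6.83 and 7.12 against 10.2, 10.1 and 10.6 (0.68 ± 0.13). Gabrb1 rose least, from 610.1, 660.2 and 612 to 701, 688 and 705 (0.15 ± 0.04).

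Gabra5, the alpha subunit of tonic inhibition in the hippocampus, fell from 478, 507 and 473 to 414, 421 and 394 (-0.25 ± 0.04, adjusted p = 0.00267). Among those that did not pass, Gabrb2 read 1719, 1612 and 1679 in controls and 1805, 1719.5 and 1771 under bicuculline (0.08 ± 0.05), and Gabra3 117, 124 and 118 and 112, 129 and 111 (-0.03 ± 0.08). Gabrg3 and Gabrr1, both dim, differed by -0.15 ± 0.15 and -0.13 ± 0.14. The other Gabrb2 probes gave -0.12 and 0.27. Under normexp 2 of the subunits, Gabrg1 and Gabra2, passed; Gabra5 did not pass under spike-in scaling, and Gabrb1 did not pass there, under median scaling, without control replicate 3 or with the replicate number as a block (adjusted p = 0.0512 in limma).

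**Figure D4:**
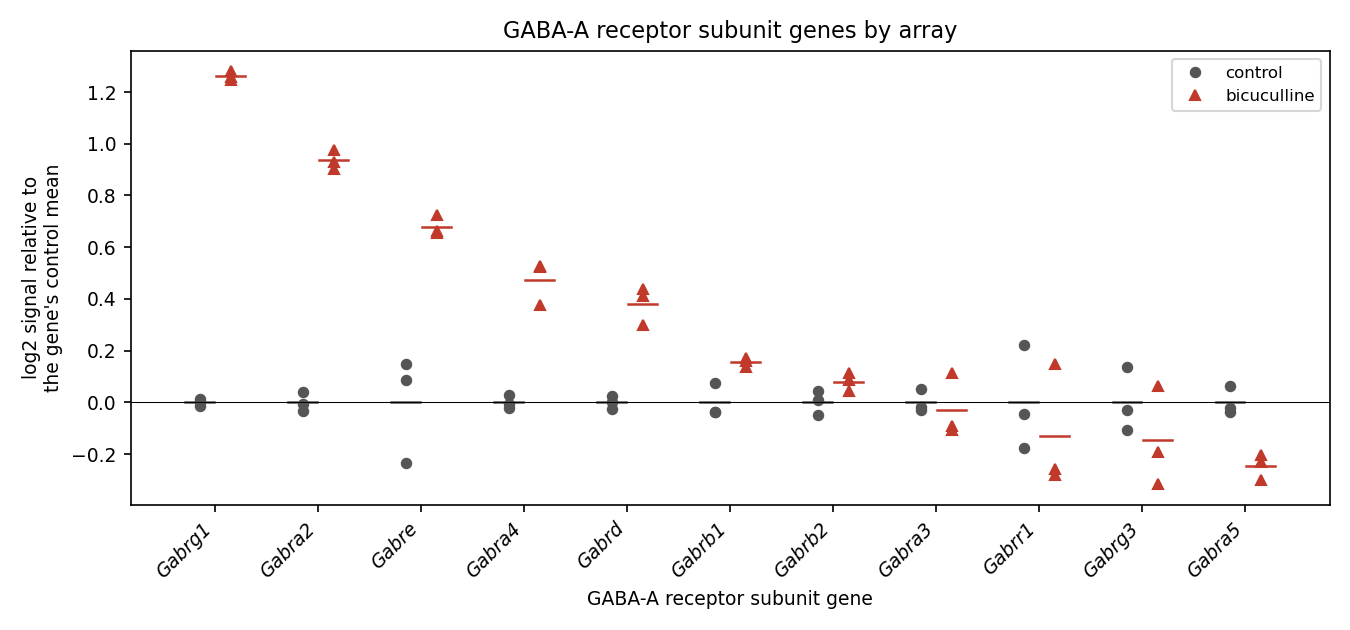
GABA-A subunit genes (11 shown), in order of their difference; the y axis is the log2 signal of each array relative to the gene's mean over the 3 control arrays. Circles are controls, triangles bicuculline and lines group means: Gabrg1 sits at 1.26 and Gabra2 at 0.94 above the control mean, and Gabra5 at -0.25 below it.

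Genes for GABA synthesis, transport, chloride balance and the GABA-B receptor had 12 of 32 higher and 5 lower. The GABA-synthesising enzyme Gad2 rose from 646, 635 and 624 to 821, 915 and 804 (0.41 ± 0.07). The chloride importer Slc12a2 (NKCC1) fell from 51.5, 51.4 and 51.1 to 34.7, 37.8 and 35.5 (-0.51 ± 0.05) and the exporter Slc12a5 (KCC2) from 3794, 4182 and 3958 to 3463, 3305 and 3332 (-0.24 ± 0.04). The GABA transporters went opposite ways, Slc6a11, or GAT-3, being lower (-0.61 ± 0.06) and Slc6a13, or GAT-2, higher (0.61 ± 0.13). Plcl1 (1.19 ± 0.05), which binds GABA-A receptors in trafficking, the GABA-B auxiliary subunit Kctd8 (1.16 ± 0.04) and the chloride transporter Clcn5 (0.47 ± 0.06) rose. Trak1 (-0.21 ± 0.05), a mitochondrial adaptor that also binds GABA-A receptors, fell on its brightest probe and a second probe gave 0.29. Of these genes, Gad2, Slc12a2, Slc12a5, Slc6a11, Slc6a13, Clcn5 and Trak1 did not pass under normexp.

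The ionotropic glutamate receptors, which carry the excitation that bicuculline releases, had 4 of 33 genes higher and 10 lower (12.1% and 30.3%), shares near those of all genes (17.4% and 27%). The NMDA subunit Grin2a, which replaces Grin2b as neurons mature, rose from 9.30, 10.4 and 9.31 to 13.4, 13.3 and 12.5 (0.44 ± 0.06), with the kainate subunits Grik2 (0.51 ± 0.05) and Grik1 (0.19 ± 0.06) and the AMPA auxiliary protein Shisa9 (0.23 ± 0.04). The larger falls were in auxiliary subunits of AMPA and kainate receptors. Cacng5 read 96.0, 94.2 and 89.3 and 49.7, 50.1 and 48.5 (-0.91 ± 0.04, adjusted p = 1.01e-06), and Cacng2 (stargazin), which carries AMPA receptors to the synapse, 115, 134 and 123 and 87.4, 87.2 and 87.3 (-0.51 ± 0.05). Cnih3 (-0.35 ± 0.04) and Neto1 (-0.31 ± 0.06) fell too. Calls lost under normexp were those of Grin2a, Grik2, Grik1, Shisa9, Cnih3 and Neto1. Calls that rested on single arrays, named in brackets, were those of Grik1 (control 1, control 2, control 3, bicuculline 1 and bicuculline 3).

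Potassium channels of the two-pore, inward-rectifier and calcium-activated families, which set the resting potential and end bursts, were mostly lower: 17 of 25 fell (68%, beside 27% of all genes) and 5 rose, with a median of -0.29. Kcnj12, an inward rectifier (Kir2.2), read 23.4, 27.2 and 23.7 in controls and 11.5, 10.8 and 10.9 under bicuculline (-1.16 ± 0.14, adjusted p = 0.000323). The SK channels Kcnn2 and Kcnn1, opened by calcium after spikes, fell from 422, 379 and 401 to 225, 221 and 229 (-0.83 ± 0.04) and from 59.2, 64.4 and 62.9 to 39.0, 39.6 and 40.1 (-0.65 ± 0.05). Kcnt2 (-0.71 ± 0.03), a sodium-activated channel, fell, and its second probe gave -0.17. Kcnj3, a channel opened by G proteins, was the exception of size, rising from 12.0, 12.3 and 12.6 to 23.9, 23.0 and 25.2 (0.97 ± 0.05). The third SK channel, Kcnn3 (0.46 ± 0.04), and the two-pore channels Kcnk13 (0.79 ± 0.21) and Kcnk10 (0.38 ± 0.05) rose. The median was -0.28 on slide 1 and -0.29 on slide 2; 11 members were lower under spike-in scaling and 5 under normexp. When normexp set the background, Kcnj12, Kcnn3, Kcnk13 and Kcnk10 did not pass. Without 1 of the arrays in brackets, the call was lost for Kcnk13 (control 1 and control 2).

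Receptors coupled to G proteins had 24 of 68 tested genes higher and 17 lower. Gpr6, a relative of Gpr12 that also raises cAMP on its own, read 22.3, 23.1 and 22.5 in controls and 1.54, 1.53 and 2.19 under bicuculline, where 1 array of 3 was well above background (-3.71 ± 0.16, adjusted p = 1.5e-06). The stress-peptide receptor Crhr1 fell from 414, 407 and 437 to 156, 168 and 177 (-1.33 ± 0.09). The neurokinin receptor Tacr3 rose from 11.7, 11.9 and 11.1 to 34.8, 34.3 and 34.5 (1.58 ± 0.05) and the orphan Gpr85 from 429, 437 and 436 to 1289.5, 1274 and 1257 (1.55 ± 0.04). Htr2b (1.68 ± 0.29) and Sstr1 (1.37 ± 0.19) rose. Htr2b (on 1 of 3 control arrays) and Sstr1 (on 1 of 3 control arrays) were well above background on part of a group. In the normexp alternative the calls of Gpr6, Htr2b and Sstr1 were lost.

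Cadherins and non-clustered protocadherins, which join synaptic membranes, had 13 of 25 higher and 6 lower, with a median of 0.23. Pcdh8, named above, read 1142, 1037 and 1122 and 3109.6, 3048 and 3176, and Pcdh20 59.7, 65.5 and 59.5 and 159, 168 and 164 (1.41 ± 0.05). Pcdh17 (0.94 ± 0.05) and Pcdh9 (0.85 ± 0.03) rose with them. Cdh15 fell from 43.1, 41.7 and 43.2 to 22.2, 21.2 and 21.9 (-0.97 ± 0.03), with smaller falls of Cdh8 (-0.37 ± 0.07), Cdh22 (-0.35 ± 0.05) and Cdh11 (-0.28 ± 0.04). Other probes of Cdh11 gave -0.24 and 0.002. The median was 0.25 on slide 1 and 0.23 on slide 2, and 6 of the list rose under normexp. Under the normexp background the calls of Cdh8, Cdh22 and Cdh11 did not pass.

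Axon guidance genes were split, 18 of 61 higher and 20 lower. Sema3e (0.84 ± 0.05), the netrin receptors Unc5c (0.82 ± 0.03) and Unc5d (0.71 ± 0.06) and the ephrin receptor Epha3 (0.72 ± 0.05) rose. Another netrin receptor, Unc5a, fell from 823, 855 and 829.9 to 516, 509.7 and 513 (-0.70 ± 0.03, adjusted p = 8.98e-07), with Epha8 (-1.15 ± 0.11), Sema4a (-0.86 ± 0.06) and Efna2 (-0.65 ± 0.12). The semaphorin, ephrin receptor and Unc5 families thus each had members that rose and members that fell. The calls of Unc5d, Epha8 and Efna2 did not pass under the normexp background.

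Factors of cortical and interneuron identity counted 10 of 37 higher and 9 lower. The deep-layer factors Fezf2 and Tbr1 rose, from 113, 117 and 110.4 to 182, 192 and 175 (0.69 ± 0.05) and from 49.3, 44.9 and 46.9 to 67.9, 70.5 and 65.9 (0.53 ± 0.05), while Bcl11b (Ctip2), a factor of the same subcortical projection neurons, fell from 320.1, 324 and 326 to 203, 197 and 208 (-0.68 ± 0.04). Nr2f1 (0.80 ± 0.15) and Sox5 (0.78 ± 0.25) rose, and Ebf2 (-2.51 ± 0.10) and Foxp2 (-0.50 ± 0.07) fell. Sox5 (on 2 of 3 control arrays) and Ebf2 (on 1 of 3 bicuculline arrays) were well above background on part of a group. Normexp background correction ended the calls of Nr2f1, Sox5, Ebf2 and Foxp2. Leaving out 1 array ended the call of Sox5 (control 1, control 2, bicuculline 2, bicuculline 3 and KCl 2).

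Genes of amino acid supply and the integrated stress response rose by small amounts, 22 of 35 higher and 2 lower, with a median of 0.22. Cebpb, a bZIP factor of this response, rose from 24.3, 28.0 and 24.4 to 47.2, 46.1 and 47.7 (0.88 ± 0.07, adjusted p = 2.5e-05). Ppp1r15a (0.58 ± 0.06), which reverses the phosphorylation of eIF2 alpha, Sesn2 (0.57 ± 0.07), an inhibitor of mTORC1, and Trib3 (0.54 ± 0.04) rose. The lipoprotein and reelin receptor Vldlr (-0.42 ± 0.05) and the cystine transporter Slc7a11 (-0.33 ± 0.09) fell, the latter with other probes at 0.10 and -0.28; with the replicate number as a block, or without control replicate 1 or 3, 1 gene of the list was lower. The median was 0.23 on slide 1 and 0.22 on slide 2; 12 of the list rose under spike-in scaling and 7 under normexp. With the background re-estimated by normexp, Vldlr and Slc7a11 did not pass. A call also ended when 1 array was left out for Slc7a11 (control 1 and control 3). With the replicate number as a block in limma, the adjusted p was 0.0663 for Slc7a11.

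Cytosolic tRNA synthetases had 8 of 20 higher and 3 lower. Eprs, the glutamyl-prolyl enzyme, rose from 568, 593 and 554 to 996, 912 and 936 (0.73 ± 0.05), and its other 3 probes gave 0.74, 0.75 and 0.79. Cars (0.30 ± 0.05), Nars (0.27 ± 0.04) and Gars (0.24 ± 0.08) rose less, and Dars (-0.23 ± 0.04), Farsa (-0.14 ± 0.04) and Farsb (-0.12 ± 0.04) fell slightly. Under spike-in scaling 1 member rose and the falls were lost. Of these genes, Cars, Nars, Gars, Dars, Farsa and Farsb did not pass under normexp. Calls that rested on single arrays, named in brackets, were those of Gars (control 1, control 2, control 3, bicuculline 1, bicuculline 2 and bicuculline 3), Farsa (control 2, control 3, bicuculline 2 and bicuculline 3) and Farsb (control 2, control 3, bicuculline 1 and bicuculline 2). With the replicate number as a block in limma, the adjusted p was 0.0778 for Farsa.

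Few cytosolic ribosomal proteins passed: 1 of 81 was higher and 2 lower, 3.7% in all beside 44.4% of genes at large. Their differences ran from -1.07, which did not pass, to 0.30. The riser was the paralog Rpl22l1 (0.30 ± 0.06), and Rps4l (-0.15 ± 0.04) and Rpl14 (-0.11 ± 0.03) were the falls. The count of rises was 13 without control replicate 2, and with the replicate number as a block 2 were higher and both falls were lost. Mitochondrial ribosomal proteins had 7 of 78 higher and 22 lower (8.97% and 28.2%, the falls near the 27% of all genes). Under spike-in scaling 0 were higher and 2 lower, and under normexp 0 and 0. The falls were led by Mrps27 (-0.41 ± 0.05) and Mrpl3 (-0.39 ± 0.05), with Mrps9 (-0.26 ± 0.03) and Mrpl36 (-0.29 ± 0.03) next. Their falls numbered 14 without control replicate 3 or bicuculline replicate 2, and their rises, led by Mrpl1 (0.25 ± 0.04), Mrpl17 (0.25 ± 0.05), Mrpl22 (0.21 ± 0.04) and Mrpl49 (0.17 ± 0.05), 3 or 4 without any of control 1, control 2 or a bicuculline replicate. Other probes of Mrpl1 gave -0.31 and 0.21. Calls lost under normexp were those of Rpl22l1, Rps4l, Rpl14, Mrps27, Mrpl3, Mrps9, Mrpl36, Mrpl1, Mrpl17, Mrpl22 and Mrpl49. Without 1 of the arrays in brackets, the call was lost for Rps4l (control 2, control 3 and bicuculline 2), Rpl14 (control 1, control 2, control 3, bicuculline 1 and bicuculline 2) and Mrpl49 (control 1, control 3, bicuculline 1 and bicuculline 2). With the replicate number as a block in limma, the adjusted p was 0.0634 for Rps4l and 0.0639 for Rpl14.

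Proteasome subunits had 4 of 37 higher and 4 lower. The rises were the immunoproteasome subunit Psmb9 (0.31 ± 0.05), Psmc6 (0.18 ± 0.04), Psmd5 (0.17 ± 0.04) and Psmd8 (0.14 ± 0.03), and the falls Psmd6 (-0.22 ± 0.06), Psma4 (-0.17 ± 0.04), Psmc3 (-0.12 ± 0.03) and Psmd7 (-0.12 ± 0.03); 2 were lower without control replicate 3 or bicuculline replicate 3. Ribosome biogenesis genes had 13 of 57 higher, with the nucleolar proteins Nolc1 (0.49 ± 0.05), Rrp1b (0.36 ± 0.05) and Fbl (0.35 ± 0.05) first, then Wdr75 (0.24 ± 0.06). The 10 falls were led by Ubtf (-0.45 ± 0.03), a factor of ribosomal RNA transcription, Utp14a (-0.28 ± 0.06), Mrto4 (-0.27 ± 0.04) and the polymerase subunit Polr1a (-0.23 ± 0.06). A second Nolc1 probe gave 0.01. Under normexp the calls of both lists were lost.

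DNA replication and cell cycle genes counted 22 of 53 lower and 8 higher (41.5% and 15.1%, beside 27% and 17.4% of all genes), with a median of -0.12. The cell cycle inhibitor Cdkn1a (p21) rose from 158, 172 and 159 to 297, 302 and 298 (0.88 ± 0.04), and Cdk6 (0.49 ± 0.05), Cdkn1b (0.42 ± 0.04) and Pcna (0.34 ± 0.03) rose. Subunits of the replication machinery, Rfc5 (-0.38 ± 0.04), Gins1 (-0.37 ± 0.04) and Mcm5 (-0.35 ± 0.08), and cyclin Ccne2 (-0.36 ± 0.10) fell. Beside this, all 10 markers of cycling and progenitor cells were above background, 6 of them fell, Hes5, Ccnb1 (-0.28 ± 0.05), Top2a (-0.22 ± 0.05) and Birc5 (-0.20 ± 0.05) by most, and none rose in limma, also at an unadjusted p under 0.05; their summed signal was 6652 to 7479 in controls and 6377 to 7288 under bicuculline. The part of such cells in the result was not tested. Under spike-in scaling 3 of the replication list fell and 4 rose, and under normexp 1 fell and 1 rose. Cdk6 (on 2 of 3 control arrays) was well above background on part of a group. When normexp set the background, Cdk6, Cdkn1b, Pcna, Gins1, Mcm5, Ccne2, Ccnb1, Top2a and Birc5 did not pass. Leaving out 1 array ended the call of Ccne2 (control 1, control 3, bicuculline 2 and bicuculline 3).

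Of 311 zinc finger genes named Zfp, 80 were higher and 72 lower (48.9% in all, beside 44.4% of all genes). Under spike-in scaling 36 were higher and 17 lower, under normexp 9 and 4, and under median scaling 50 and 62. Zfp459, one of the 15 largest rises, read 9.36, 9.71 and 9.47 in controls and 67.9, 67.1 and 66.1 under bicuculline, and Zfp184 (1.26 ± 0.06), Zfp804a (0.99 ± 0.19) and Zfp948 (0.95 ± 0.06) rose. Zfp618 (-0.87 ± 0.04), Zfp467 (-0.67 ± 0.10) and Zfp94 (-0.64 ± 0.11) fell, and Zfp318 (-0.63 ± 0.03) fell on its brightest probe while 3 other probes gave 0.23, 0.21 and 0.28. Zfp804a (on 1 of 3 control arrays) was well above background on part of a group. In the normexp alternative the calls of Zfp804a, Zfp467 and Zfp94 were lost.

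Neuronal markers themselves moved in both directions, 4 of 16 higher and 5 lower. The neurofilament light and medium chains rose, Nefl from 1571, 1688 and 1613 to 4587, 4698 and 4640.2 (1.52 ± 0.03) and Nefm by 0.59 ± 0.03, while the heavy chain Nefh fell from 180.3, 183 and 182 to 138, 132 and 137 (-0.42 ± 0.04). The glutamate transporter Slc17a6 (VGLUT2) rose from 119, 120.2 and 115 to 205, 202 and 205 (0.78 ± 0.03) and Slc17a7 (VGLUT1) fell (-0.16 ± 0.04); Rbfox3 (-0.25 ± 0.04) and Tubb3 (-0.16 ± 0.04) fell slightly. The summed signal of the list was 19680.0 to 20909 in controls and 22435 to 23479 under bicuculline. The rise of Nefl alone was about as large as the difference between these sums, so they are not read as a general rise of neuronal markers. Under the normexp background the calls of Slc17a7, Rbfox3 and Tubb3 did not pass.

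Markers of other cells were present. All 12 astrocyte markers were above background; 5 fell, none rose in limma, also at an unadjusted p under 0.05, and Gjb6 (-0.87 ± 0.16), a gap junction gene, fell most, beside Fgfr3 (-0.28 ± 0.07), Aqp4 (-0.24 ± 0.03) and Sox9 (-0.18 ± 0.05). Their summed signal was 18283 to 19780.0 in controls and 18431 to 18555 under bicuculline, ranges that overlap. Of 12 microglia and macrophage markers listed 9 were tested and none passed in limma, nor had any an unadjusted p under 0.05, the largest differences being Cx3cr1 (-0.17 ± 0.24) and Aif1 (-0.10 ± 0.16); P2ry12, Cd68 and Itgam gave no tested value, and the sums were 469 to 498 and 382 to 582. Of 10 oligodendrocyte lineage markers 1 rose, Olig2 (0.31 ± 0.04), and 5 fell, among them Mbp (-0.33 ± 0.05), Cspg4 (-0.16 ± 0.05) and Pdgfra (-0.16 ± 0.05), with sums of 3274 to 3399 and 3135 to 3259.9; without any 1 of control 1 to 3 or bicuculline 1 or 3 the falls numbered 2, and with the replicate number as a block 3. Of 10 vascular and fibroblast markers none rose in limma (1 at an unadjusted p under 0.05) and 2 fell, Pdgfrb (-0.19 ± 0.04) and Col1a1, with sums of 1476 to 1501 and 1501 to 1542; without KCl replicate 2, 1 rose, with the replicate number as a block 2 rose, and without any 1 of control 1, control 3 or the bicuculline arrays 1 fell. The calls of Gjb6, Fgfr3, Aqp4, Sox9, Mbp, Cspg4, Pdgfra and Pdgfrb did not pass under the normexp background. A call also ended when 1 array was left out for Cspg4 (control 1, control 2, control 3, bicuculline 1, bicuculline 3 and KCl 3) and Pdgfra (control 1, control 2, control 3, bicuculline 1, bicuculline 3 and KCl 1). With the replicate number as a block in limma, the adjusted p was 0.0967 for Pdgfra. The part of these cells in the results above was not tested.

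Probes of a gene did not always move together. Of 27781 probes tested, 4834 were higher and 6261 lower (39.9% in all), and of 5299 genes with 2 or more probes kept, 134 had probes that passed in opposite directions. Arpp21, a calcium-regulated phosphoprotein that also hosts a microRNA, had the widest gap, with probes at 2.46, 0.10 and -0.18. Setd7, a lysine methyltransferase, had 1 probe at 1.51, well above background on 1 control array, and 2 at -0.21 and -0.23. The cytokine receptor Lifr had 4 probes between 0.59 and 1.32 and 1 at -0.33. Apaf1, the scaffold of the apoptosome, gave 0.83, -0.67 and -0.79, with the first well above background on 1 control array, and Slc8a1, a sodium-calcium exchanger, gave 0.93 and -0.57 with 2 probes near 0. Ildr2 gave 1.11 and -0.43, the giant muscle protein Neb 0.98 and -0.51 (the third probe, at 1.16, did not pass), and the ubiquitin ligase Arih1 4 probes between 0.62 and 1.01 and 1 at -0.45. The transcripts these probes read could differ within a gene, and which they are was not tested.

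Of 6789 probes with no gene name 1131 were higher and 1254 lower, 35.1% in all, beside 3703 higher and 5007 lower of 20992 named probes, 41.5% in all. The largest rises were A_51_P458008 (4.48 ± 0.07), A_51_P303791 (3.34 ± 0.05) and A_52_P470046 (2.92 ± 0.05). The first read 5.51, 5.84 and 5.34 in controls and 115, 134 and 124 under bicuculline, on the scale of the largest named rises. The largest falls were A_52_P440836 (-2.22 ± 0.08), A_52_P478174 (-2.10 ± 0.05) and A_52_P966930 (-1.76 ± 0.13). These 6 were drawn from probes without overlap between groups.

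Bicuculline and KCl were compared directly, without the control arrays, in the same fit: 4047 genes were higher under bicuculline and 5076 lower, 64.9% of those tested. This balance turned with the scaling: 4882 were higher and 3680 lower under quantile normalization, 4866 and 2501 under median scaling, 5220 and 1283 under spike-in scaling and 1334 and 1099 under normexp. Bicuculline replicates 1 and 2 were on slide 1 and KCl replicate 3 on slide 3, and only slide 2 held arrays of both groups. Treatment and slide are thus partly confounded in this comparison. With the slide as a block in limma, 3439 genes were higher under bicuculline and 3855 lower. The 2 treatments differ in dose and kind and share only their duration. Genes were named where they differed both from control and from KCl. Npas4 differed most, at 69.8, 84.0 and 78.2 under bicuculline and 900.0, 806 and 837 under KCl (-3.46 ± 0.08, adjusted p = 3.4e-07). Fos was lower under bicuculline too (-1.71 ± 0.04), whereas Inhba (0.12 ± 0.07, adjusted p = 0.143) and Nptx2 (-0.12 ± 0.06, adjusted p = 0.102) did not pass. Ptgs2 was higher under bicuculline, at 51.2, 52.0 and 52.3 against 31.4, 35.7 and 33.3 (0.63 ± 0.05).

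The other genes lowest under bicuculline relative to KCl were C2cd4b (-2.15), Dennd2c (-2.12), Glt28d2 (-2.03), D630039A03Rik (-1.96), the contactin-associated protein Cntnap5a (-1.83), the smooth muscle protein Cnn1 (-1.81) and Lonrf3 (-1.77). Cntnap5a still rose over control on its brightest probe, from 5.90, 5.96 and 5.73 to 28.9, 25.4 and 25.4. Its second probe gave -0.14 and did not pass, so the rise rests on 1 probe. Among those highest under bicuculline relative to KCl were the LIM protein Crip3 (2.00), Hes5 (1.75), Il11 (1.72), Plekhh1 (1.62), the interferon-induced Oasl2 (1.60), whose bicuculline and control arrays overlapped, the general transcription factor Gtf2e1 (1.37) and Zmat1 (1.35). Il11 read 17.9, 20.4 and 19.7 under bicuculline and 5.85, 5.66 and 6.15 under KCl, and Hes5 363, 376 and 343 and 102, 109.7 and 110.4. Against control, Gtf2e1 and Dennd2c had an adjusted p of 0.0561 and 0.0555 in limma with the replicate number as a block. For Hes5, Crip3 and Zmat1 the bicuculline arrays lay between the KCl and the control arrays.

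**Figure D5:**
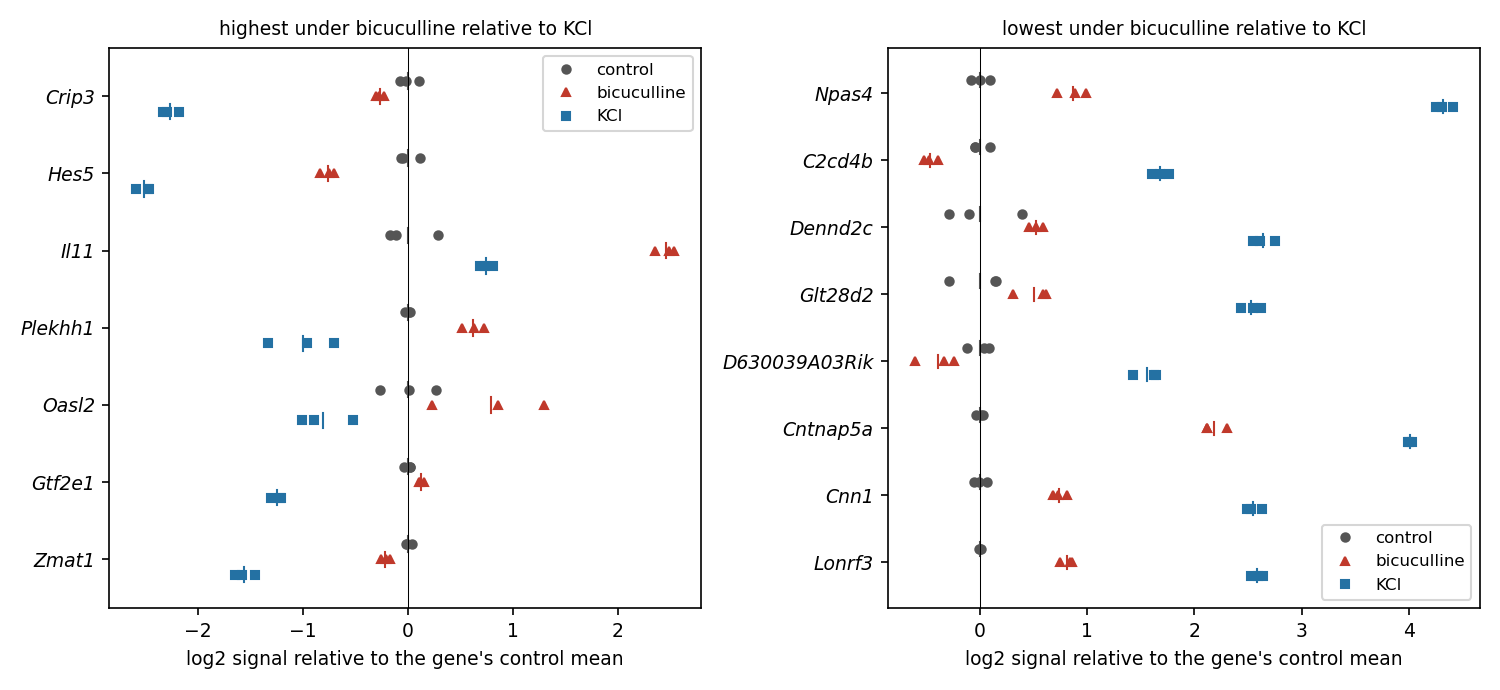
Genes highest (7 shown, left) and lowest (8, right) under bicuculline relative to KCl; the x axis is the log2 signal of each array relative to the gene's mean over the 3 control arrays. Circles are controls, triangles bicuculline, squares KCl and short lines group means; Npas4 sits at 0.86 under bicuculline and farther right under KCl, and Il11 is the gene farthest right under bicuculline in the left panel.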

How the data were processed

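Each array is 1 Cy3-labelled RNA sample. The deposited intensity values are Agilent's processed signals, from which Feature Extraction had subtracted a background; the file headers name release 10.7.3.1 of that program and the submitters' processing notes name 10.5.1.1; the deposited value table of the series holds the same processed signals. From these, log2 signals minus each array's 75th percentile of non-control spots were computed. Spots with an outlier flag were left out, spots of a probe averaged, and probes kept that were well above background on all arrays of 1 group or more and measured on 2 arrays or more of each group; 27781 of 41174 probes were kept, 20992 of them with a gene name. The brightest kept probe stands for each of 14063 genes. Gene names are RefSeq's, matched through the transcript identifier that the array design gives each probe, and probes without a match count as having no gene name. limma 3.58.1 in R 4.3.3 was fitted to all 9 arrays, with Benjamini-Hochberg adjustment over all genes and calls at 0.05; it was tested on simulated data first. In bounds, the dim group stands at the higher of its own signal and the lowest signal well above background on each array. The number of arrays limits the precision.

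Deviations of same-numbered control and bicuculline arrays from their group means correlated at 0.40, 0.26 and 0.74 over genes. The main fit had group as its only term, and the replicate number entered as a block in an alternative fit. Of these 2 groups replicate 3 alone was on slide 2, so for it pairing and a shared slide cannot be told apart. Slide 1 held control and bicuculline replicates 1 and 2, slide 2 held replicate 3 of both with KCl replicates 1 and 2, and slide 3 held KCl replicate 3.

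Members and lists were chosen with earlier results of these data known. Named are the 15 largest rises and falls among probes well above background on all 6 arrays without overlap; up to 4 rises and 4 falls of each list, or its 2 largest differences where none passed; GABA-A subunits and a panel of activity genes; the 8 highest and 8 lowest against KCl; the 8 widest gaps between probes; the 3 largest rises and falls among unnamed probes; and the 5 largest bounds each way. Scg2, Zdbf2, Dio2, Tnfaip6 and Csrnp1 are named for their promoters alone. Some genes that these rules name are not reported here. Alternatives were other scalings, backgrounds, filters, probe summaries, blocks and leaving out each array.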

Additional observations from a re-analysis of the deposited data

How the results depend on the processing

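The number of genes called depended on the background and the scaling. Against control, 1577 genes were higher under median scaling; spike-in scaling gave 1247 higher and 1256 lower genes and 2671 higher and 2176 lower probes; normexp gave 483 and 340 genes and 679 and 350 probes, with 6 of the 6242 genes called turned in sign. Averaging all kept probes of a gene turned 112 of them. Against KCl, 4047 genes higher and 5076 lower became 4882 and 3680 with quantile normalization, 4866 and 2501 with median scaling, 5220 and 1283 with spike-in scaling and 1334 and 1099 with normexp, so the more frequent direction turned under all 4. Median scaling gave 13 rises against 22 among amino acid supply and stress response genes, 4 against 13 in ribosome biogenesis and 50 against 80 among Zfp genes. The more frequent direction of a list turned in 4 lists under median scaling, 1 under quantile normalization, 5 under spike-in scaling (extracellular matrix, 5 higher and 4 lower, among them) and 8 under normexp (Kruppel-like factors, 4 and 2, synaptic scaling effectors, 6 and 3, axon guidance, 5 and 4, and extracellular matrix, 2 and 1, among them). At 2-fold or more, 126 genes were higher and 29 lower under normexp, and 229 to 246 and 78 to 87 under the other scalings.

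Leaving out 1 array at a time gave 2119 to 2436 higher and 3152 to 3841 lower genes, 4054 to 4871 higher and 5000 to 6326 lower probes, and against KCl 3753 to 4001 higher and 4464 to 5035 lower genes. The paired fit, with the replicate block on 6 arrays, called 6513 genes, 5699 of them called the same way without it; with all 9 arrays it called 5974. It ended the calls of 9 of 345 named genes on 6 arrays and of 11 on 9 arrays, and spike-in scaling ended 75, median scaling 20, normexp 199 and the slide block 9. Of the named genes, averaging probes turned 7: Rgs8 (0.33), Trak1 (0.042), Zfp318 (0.022), Homer1 (0.15), Setd7 (0.36), Ildr2 (0.34) and Slc8a1 (0.090). The cause of these moves was not tested, apart from the probes averaged.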
